A study of Tupaia belangeri with 8 samples.

Results

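Mature miRNAs from a pair of genomic clusters are described here across 8 small RNA libraries of tree shrew neurons: tch-miR-221-3p and tch-miR-222-3p from one cluster, and tch-miR-23b-3p and tch-miR-27b-3p from the other. They were chosen by name, with earlier results of these data known. All 4 are among the 384 miRNAs of the deposited table and among the 166 that passed a filter on low counts. Primary neurons were isolated from the brain of neonatal tree shrews (Tupaia belangeri), with the aim of obtaining cells with dopaminergic activity, and grown in Neurobasal-A medium with B-27, penicillin/streptomycin, L-glutamine and 15% fetal bovine serum, the same for both groups. For the 4 METH libraries, 5 µl of methamphetamine, labelled 100 mmol, was added to 995 µl of medium per well. The 4 PBS libraries are from wells that got medium without the drug, and cells of both groups were rinsed with PBS beforehand and collected after 24 h. Whether replicates are separate animals or cultures is not in the labels, so p-values cover the spread of these libraries, which may be technical. The series asks how methamphetamine, a psychostimulant that releases dopamine, damages neurons.

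Clustered miRNAs are cut from one primary transcript, which carries them in equal numbers. Later steps (processing, loading into Argonaute, decay and, in sequencing, adapter ligation) set how many reads each mature form gives. In other mammals miR-221 and miR-222 share a seed, the bases that select targets. They are best known for repressing CDKN1B, an inhibitor of the cell cycle, and the receptor KIT, and they rise in dividing smooth muscle and tumour cells. miR-23b and miR-27b lie beside a copy of miR-24 in other mammals and have different seeds. In mouse neurons both are known to repress Apaf1, which activates caspases in apoptosis, and in human cells miR-23b represses glutaminase. miR-27a, described beside them, is the near-identical paralog of miR-27b from a different cluster. The RefSeq annotation of a Chinese tree shrew assembly, TupChi_1.0, lists all 4 members under the same names, with MIR221 next to MIR222 and MIR23B next to MIR27B, and with MIR27A elsewhere.

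Total miRNA counts ranged from 339243 to 7334789 per library, and the deepest were PBS 4 and METH 4. A first principal component with 65.7% of the variance set PBS 1, PBS 3 and METH 3 (−14.64, −13.03 and −18.64) apart from the remaining 5 libraries (6.34 to 11.94). The ratios, their spread and the fold changes of the members and of miR-27a-3p are given with and without these 3 libraries. Levels are given as TMM-CPM, reads scaled to a fixed library total after TMM normalisation, a method that sets the library size so that most miRNAs keep their level. In reads of a bulk library, fewer cells of a type and less of a miRNA per cell cannot be told apart.

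miR-221-3p, the more abundant member of its cluster, was at 1336, 681, 971 and 715 TMM-CPM in PBS 1 to 4, and at 432, 1158, 3179 and 883 in METH 1 to 4. METH 3 was the highest library and METH 1 the lowest, and all 4 PBS libraries lay between them. miR-222-3p was at 502, 541, 336 and 359 in PBS 1 to 4, and at 279, 479, 1296 and 400 in METH 1 to 4. The same METH libraries were its extremes, so the groups overlapped for both members. Reads ranged from 206 to 4688 for miR-221-3p and from 133 to 2225 for miR-222-3p. On the deposited TPM, which divide by the library total alone, the order of the libraries changed. PBS 1, PBS 3 and METH 3 were at 1969, 1787 and 3558 TPM for miR-221-3p and the other 5 at 320 to 1171. For miR-222-3p they were at 740, 618 and 1450 TPM and the other 5 at 207 to 485. The separation of these 3 libraries on TPM did not hold on TMM-CPM, where METH 2 lay above PBS 3 for both members.

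miR-27b-3p was the most abundant member in each of the 8 libraries, at 5886, 20602, 7668 and 23856 TMM-CPM in PBS 1 to 4 and at 10093, 16602, 6495 and 36588 in METH 1 to 4. It ranked between 7 and 28 among the miRNAs of a library and took 0.727% to 2.90% of the counts. PBS 1, PBS 3 and METH 3 held its 3 lowest levels on this scale. On TPM, where PBS 3 was at 14114 and PBS 2 at 13393, they did not. miR-23b-3p was at 797, 2113, 2354 and 5177 TMM-CPM in PBS 1 to 4 and at 711, 1732, 1175 and 4406 in METH 1 to 4. The deep libraries numbered 4 were its highest, and PBS 1 and METH 1 its lowest. The groups overlapped for both members. miR-27a-3p divided the libraries as miR-27b-3p did and with a wider gap, at 1832, 1905 and 1754 TMM-CPM in PBS 1, PBS 3 and METH 3, and 8077 to 14964 in the other 5.

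**Figure D1:**
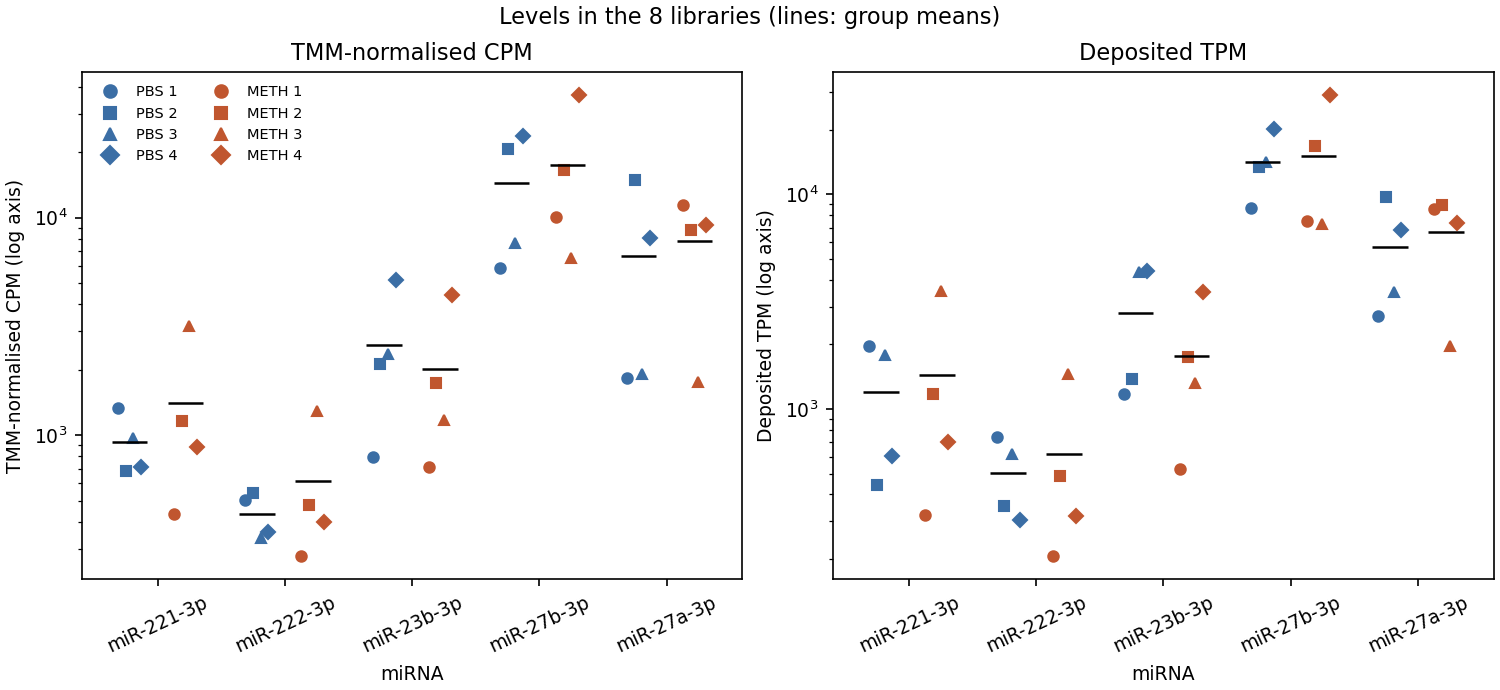
Levels of the 4 members and of miR-27a-3p in each library, as TMM-normalised CPM (TMM-CPM) (left) and as deposited TPM (right), both on a log axis; blue marks PBS, orange METH, the marker shape the library number, and black lines the group means. METH 3 is the highest library for miR-221-3p and miR-222-3p, and METH 4 for miR-27b-3p, on both scales.

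The order of the levels in reads was miR-27b-3p over miR-23b-3p, miR-221-3p and miR-222-3p, but not all neighbours in it were separated. miR-27b-3p exceeded the other 3 members in 8 of 8 libraries, and miR-221-3p exceeded miR-222-3p in 8 of 8. miR-23b-3p exceeded miR-221-3p in 6 of 8, the exceptions being PBS 1 and METH 3, and miR-222-3p in 7 of 8, the exception being METH 3. Read numbers of different miRNAs also carry their ligation efficiency, so this is an order of reads. Together miR-23b-3p and miR-27b-3p held 1.71 times the TMM-CPM of miR-221-3p and miR-222-3p in METH 3 and 31.9 times in METH 4. In PBS the same balance ranged from 3.64 in PBS 1 to 27.03 in PBS 4.

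Within the first cluster miR-221-3p outnumbered miR-222-3p in every library. miR-221-3p gave 2.66, 1.26, 2.89 and 1.99 reads per read of miR-222-3p in PBS 1 to 4. METH 1 to 4 had 1.55, 2.42, 2.45 and 2.21. PBS 2 and METH 1 were the lowest, and the groups overlapped. Over all 8 libraries the log2 ratio had an SD of 0.41, against 0.85 for the log2 level of miR-221-3p and 0.68 for that of miR-222-3p. This order came from METH, where the SDs were 0.31, 1.19 and 0.95 and METH 3 and METH 1 were the extremes of both levels. Within PBS it was the other way round, with 0.54 for the ratio and 0.45 and 0.34 for the levels. In the deep libraries, the share of miR-221-3p in the reads of the pair was 66.6% in PBS 4 (95% Wilson interval 65.5% to 67.7%) and 68.8% in METH 4 (67.7% to 69.9%). It was 55.7% in PBS 2 (51.8% to 59.6%) and 74.3% in PBS 3 (71.4% to 77.0%), 2 libraries of the same group whose counting intervals did not overlap. These intervals cover counting error only, since the protocols mention no molecular identifiers. The mean log2 ratio was 1.07 ± 0.54 in PBS and 1.08 ± 0.31 in METH (SD, n = 4 each). The difference of 0.02 (METH minus PBS) had a 95% interval of −0.90 to 0.96 by inversion of an exact two-sided permutation test over 70 splits, with p = 0.914 (adjusted over 3 ratios, 0.914). It was 0.35 without the 3 libraries that stood apart. Its sign changed without PBS 2 (−0.23), and also without PBS 4, METH 2, METH 3 or METH 4 (−0.054 to −0.0026).

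In the second cluster miR-27b-3p outnumbered miR-23b-3p by a factor that varied more. There were 7.39, 9.75, 3.26 and 4.61 reads of miR-27b-3p per read of miR-23b-3p in PBS 1 to 4. The factors in METH 1 to 4 were 14.2, 9.59, 5.53 and 8.30. PBS 3 had the smallest excess and METH 1 the largest, and METH 3 lay within the PBS range, as did METH 2 and METH 4. The log2 ratio of miR-23b-3p to miR-27b-3p was −2.52 ± 0.70 in PBS and −3.15 ± 0.56 in METH (SD, n = 4 each), with 3 of 4 METH libraries under the mean of PBS. The difference of −0.63 did not pass (95% interval −2.12 to 0.81, exact permutation p = 0.200, adjusted over 3 ratios 0.600). The smallest p that this design allows is 0.0286. The value was −0.89 without PBS 2, −0.36 without PBS 3 and −0.64 without the 3 libraries that stood apart, and its sign was the same under all 13 alternatives.

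The paralogs from separate clusters were compared in the same way. miR-27b-3p gave 3.21, 1.38, 4.02 and 2.95 reads per read of miR-27a-3p in PBS 1 to 4. METH 1 to 4 had 0.879, 1.88, 3.70 and 3.95. METH 1 was the only library with more miR-27a-3p than miR-27b-3p. The mean log2 ratio was 1.43 ± 0.67 in PBS and 1.15 ± 1.01 in METH (SD, n = 4 each). The difference of −0.28 did not pass (95% interval −2.19 to 1.51, exact permutation p = 0.657, adjusted over 3 ratios 0.914), and it was 0.16 without METH 1, −0.60 without PBS 2 and −0.11 without the 3 libraries that stood apart. PBS 2 and METH 1 had the lowest values of all 3 ratios. Reads of such near-identical paralogs could be shared in the authors' counting. This is also true of miR-23a, which gave no row under its listed name, and miR-23b. Whether miR-23a reads entered the count of miR-23b-3p, and so its ratio to miR-27b-3p, was not tested.

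**Figure D2:**
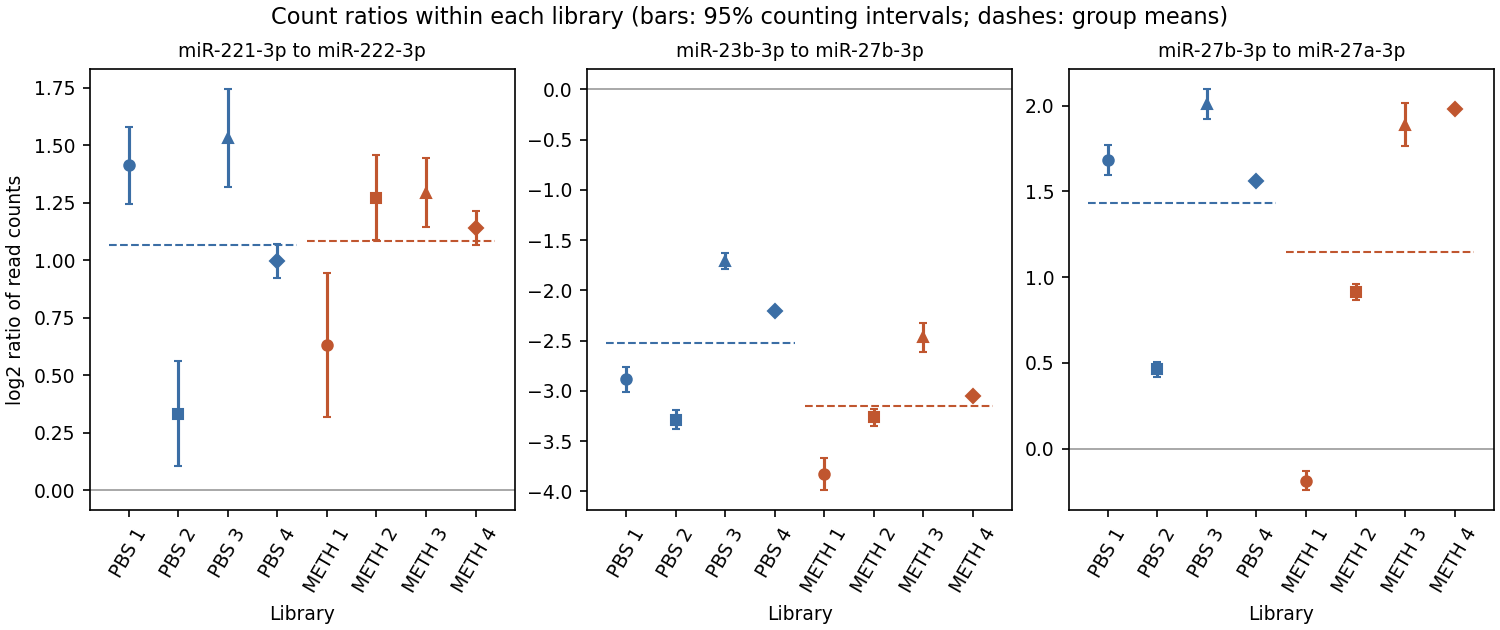
The log2 ratio of read counts in each library for miR-221-3p to miR-222-3p, miR-23b-3p to miR-27b-3p and miR-27b-3p to miR-27a-3p; bars are 95% Wilson intervals for counting error and dashed lines the group means. PBS 2 and METH 1 are the lowest libraries in each panel, and the groups overlap in all 3.

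The spread of the log2 ratio over the 8 libraries, as its SD, measures how closely a pair of miRNAs moved together and does not depend on the library size. It was 0.41 for miR-221-3p with miR-222-3p, 0.68 for miR-23b-3p with miR-27b-3p and 0.81 for miR-27b-3p with miR-27a-3p. The median over all 13695 pairs of tested miRNAs was 1.43, and 1.25%, 8.48% and 14.1% of these pairs had a smaller spread. Pairs formed across the clusters lay near the median, with 1.35 to 1.56. All pairs share the same libraries and counts, so these positions are a description. Without PBS 1, PBS 3 and METH 3, the SDs were 0.39, 0.59 and 0.86 against a median of 0.94, and the shares of pairs with a smaller spread were 6.33%, 19.5% and 43.5%. The pairs thus stood less far below the others among these 5 libraries. There the pair of miR-221-3p and miR-27b-3p, from separate clusters, also had an SD of 0.59, against 1.56 over all 8 libraries, so its SD then equalled that of the second cluster. This last alternative was chosen after the data were seen.

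Other cluster neighbours known in mammals gave a wide range on the same measure. Some of the listed pairs share a member. Whether a mature miRNA of these pairs also comes from other loci was not checked, so a pair need not reflect a single transcript. Of 46 listed pairs, 15 had both members tested, with SDs from 0.23 (let-7a-5p with let-7f-5p) to 1.97 (miR-20a-5p with miR-92a-3p) and a median of 0.76. Of these 15, 3 lay below miR-221-3p with miR-222-3p, among them miR-25-3p with miR-93-5p at 0.36, and 7 lay below miR-23b-3p with miR-27b-3p. The others of the 3 pair let-7a-5p with let-7f-5p and with miR-100-5p (0.39). let-7a-5p had far fewer reads than let-7f-5p (mean log2 ratio −9.62), and sharing of reads between them was not tested. miR-191-5p with miR-425-5p, which share a transcript in other mammals, had an SD of 1.60.

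**Figure D3:**
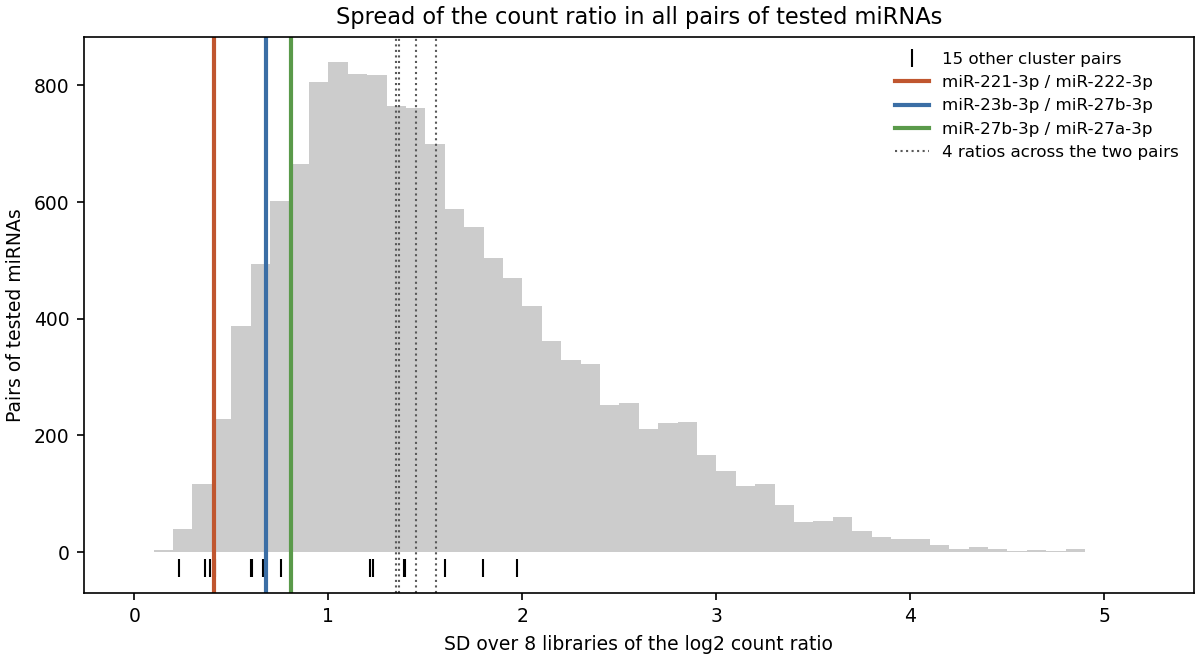
Histogram of the SD over 8 libraries of the log2 count ratio for all 13695 pairs of the 166 tested miRNAs; coloured lines mark the 2 clusters and the paralogs, dotted lines the 4 pairs formed across the clusters, and ticks below the axis the 15 other cluster pairs. The 2 clusters lie at 0.41 and 0.68, left of the median of 1.43, and the pairs across clusters lie at 1.35 to 1.56.

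By this measure miR-221-3p was the nearest of the 165 other tested miRNAs to miR-222-3p, while miR-222-3p was the fourth nearest to miR-221-3p (rank 4). Nearer to miR-221-3p were the predicted miRNAs novel_9 (SD 0.32) and novel_2 (0.35) and miR-1301 (0.39), which had only 3 reads in its lowest library, and miR-342-3p (0.45) followed. After its cluster partner, miR-222-3p was nearest to miR-148b-3p (0.52), miR-1301 (0.52), miR-361-5p (0.53) and novel_2 (0.53). miR-27b-3p was the third nearest to miR-23b-3p (rank 3), behind the predicted novel_516 (0.47) and novel_482 (0.66) and just before miR-194-5p (0.68) and miR-330-3p (0.69). In the other direction, miR-23b-3p held rank 12 for miR-27b-3p. miR-27b-3p was closest to miR-194-5p (0.27, with 4 reads in its lowest library), miR-22-3p (0.32), miR-29a-3p, whose family represses collagens in mouse (0.41), miR-28-5p (0.44) and miR-185-5p (0.47). miR-27a-3p held rank 25 for it. With the comparison kept to the 132 miRNAs of a mean count of at least 100, the cluster partners held ranks 3 and 1 in the first cluster and 3 and 11 in the second.

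METH against PBS, tested for each member in one fit over all 166 miRNAs, gave no call. miR-221-3p averaged 926 ± 302 TMM-CPM over PBS and 1413 ± 1215 over METH (SD, n = 4 each). METH over PBS came to 0.61 on the log2 scale (SE 0.63, 95% interval −0.76 to 1.98, edgeR adjusted p = 0.999), and 2 of 4 METH libraries lay above the PBS mean. miR-222-3p was at 434 ± 102 and 614 ± 462, or 0.50 on the log2 scale (SE 0.59, 95% interval −0.80 to 1.80, edgeR adjusted p = 0.999), again with 2 of 4 METH libraries above. The sign of both turned to −0.24 without METH 3. Without all 3 libraries that stood apart, the values were 0.22 and −0.22. The SD of log2 TMM-CPM was 0.45 in PBS and 1.19 in METH for miR-221-3p, and 0.34 and 0.95 for miR-222-3p. This difference in spread was not tested.

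miR-23b-3p averaged 2610 ± 1843 TMM-CPM over PBS and 2006 ± 1654 over METH (SD, n = 4 each), or −0.38 on the log2 scale (SE 0.70, 95% interval −1.91 to 1.15, edgeR adjusted p = 0.999). Only 1 METH library lay above the PBS mean. Leaving out METH 4 gave −1.09, leaving out METH 1 gave −0.16, and leaving out PBS 4 turned the sign to 0.19. Over the 5 libraries that did not stand apart it was −0.77. miR-27b-3p was at 14503 ± 9049 and 17444 ± 13430, or 0.27 on the log2 scale (SE 0.69, 95% interval −1.24 to 1.78, edgeR adjusted p = 0.999) and 2 METH libraries above the PBS mean. It was −0.36 without METH 4, −0.055 without PBS 1, −0.015 without PBS 3 and 0.59 without PBS 4, and −0.13 without the 3 libraries that stood apart. miR-27a-3p, at 6695 ± 6242 and 7831 ± 4216, had 0.23 (SE 0.79). This was 1.00 without PBS 2, and from −0.12 to −0.0039 without PBS 1, PBS 3, METH 1 or METH 2. Without the 3 libraries that stood apart it was −0.21.

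Of all miRNAs tested, 0% were called by edgeR (0 of 166), so 0 of 4 members is the background share. In edgeR 0 miRNAs had an unadjusted p under 0.05, and DESeq2 called 0 with 2 under that level. The groups did not overlap on TMM-CPM for 0 of the 4 members, and for 0% of the 166. The fold changes of all miRNAs had a median of 0.21 with TMM, with 126 above 0 and 40 below, so miR-27b-3p lay near this median and miR-23b-3p below it. Scaling by total counts moved the median miRNA by −0.35, and the members then stood at 0.26, 0.29, −0.67 and 0.10 in the order miR-221-3p, miR-222-3p, miR-23b-3p and miR-27b-3p. No member changed sign with DESeq2 size factors, upper quartile factors or total counts. The dispersions of the members, the squared relative spread beyond counting error, were 0.47, 0.43, 0.53 and 0.50 in that order, close to the median of 0.53.

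**Figure D4:**
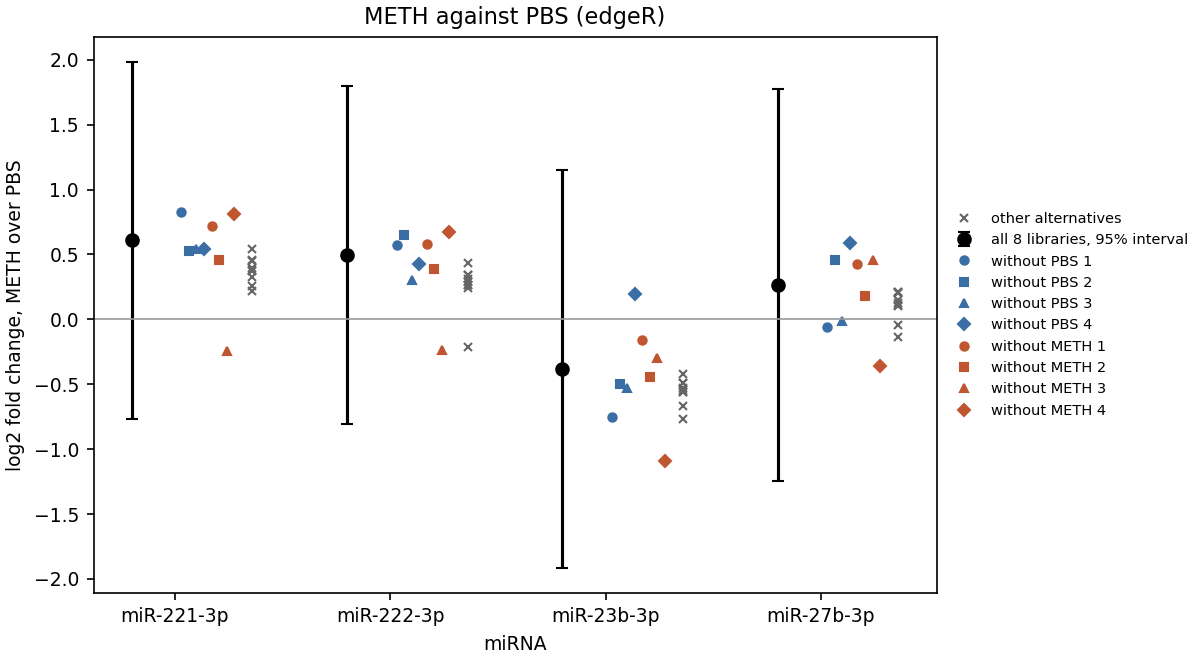
log2 fold changes of METH over PBS for the 4 members: black points are the edgeR estimates from all 8 libraries with 95% intervals, coloured points the estimates without 1 library, and crosses the other alternatives. Each interval includes 0, and leaving out METH 3 brings miR-221-3p and miR-222-3p to −0.24.

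Some listed markers of cell types other than neurons differed between the same libraries as some of these levels, and others did not. The 3 matched of 7 fibroblast and smooth muscle miRNAs (miR-143-3p, miR-199b-3p and miR-10b-5p) summed to 11319, 18846 and 12125 TMM-CPM in PBS 1, PBS 3 and METH 3, and to 45507 to 93741 in the other 5 libraries. Of the 3, miR-143-3p divided the libraries, at 1117 to 4925 against 24319 to 80855. miR-199b-3p did not, with 13905 in PBS 3 above 12849 in PBS 2, nor did miR-10b-5p, with 36.1, 16.8 and 7.90 in PBS 1, PBS 3 and METH 3 and 5.27 to 39.8 in the other 5. On TMM-CPM the levels of miR-27b-3p and miR-27a-3p divided the libraries as miR-143-3p did. The first principal component made the same division, so it was not particular to these markers. miR-148a-3p, which is not among them, was at 2204 to 6038 in PBS 1, PBS 3 and METH 3 and at 48252 to 213372 in the other 5. By group, the fibroblast and smooth muscle sums ranged from 11319 to 93741 in PBS and from 12125 to 74974 in METH. None of their 3 miRNAs was at 0 throughout, and the part of these cells in the members' levels was not tested. The 4 epithelial miRNAs, none of which passed the filter on low counts, summed to 373 in PBS 1 and 458 in METH 3. They summed to at most 35.5 in the others. PBS 1 and METH 3 were the 2 libraries with the most miR-221-3p, and the part of epithelial cells was not tested either. The neuron list had 5 of 7 names matched, while miR-124-3p and miR-9-3p gave no row. It summed to 13498 to 72025 in PBS and 26205 to 99041 in METH, so its matched part had reads in every library. miR-9-5p alone held 64267 of the 82745 in METH 3 and 6507 of the 13498 in PBS 3. For leukocytes and microglia, 2 of 4 names gave a row and summed to 540 to 2600 in PBS and to 493 to 4775 in METH. The sums were 2109, 2600 and 4775 in PBS 1, PBS 3 and METH 3 and at most 1240 in the other 5. METH 3 was the highest, as for miR-221-3p and miR-222-3p. It was also the highest library for miR-92a-3p (43493) and miR-125b-5p (75797), which are not on this list. A peak in METH 3 was thus not particular to these markers. Nearly all of each leukocyte and microglia sum was miR-155-5p, at 2109, 2596 and 4775 in PBS 1, PBS 3 and METH 3. The other matched name, miR-142, did not pass the filter on low counts. In METH 1, the lowest library for miR-221-3p and miR-222-3p, the sum was 1071 and miR-155-5p 996. The part of these cells was not tested. The single matched oligodendrocyte miRNA, miR-219-5p, was at most 0.754, with no read in 6 libraries, and 0 of the 2 endothelial names gave a row.

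Lists linked to what these miRNAs do elsewhere gave no call. Of the 25 listed cell cycle miRNAs, 14 were tested and 0 were called, with 11 log2 fold changes above 0 and 3 below and a median of 0.17 beside 0.21 for all miRNAs. Of the 23 listed miRNAs of smooth muscle and endothelium, 11 were tested and 0 were called, with 8 above 0 and 3 below and a median of 0.14. Of the 10 listed relatives of the members (other arms, miR-23a, miR-24 and miR-27a), 1 gave a row, miR-27a-3p.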

How the data were processed

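The deposited table holds raw read counts and TPM for each miRNA in each library, per the file headers. These TPM, made by the authors, are the count over the summed counts of all listed miRNAs at a fixed scale, without a length term (largest difference 4.51e-05). Libraries were made by adapter ligation, reverse transcription, PCR and gel selection, per the labels' protocols. Reads were assigned with an aligner and a build both not given in the sources used here. No sequences were used, and RefSeq gene positions served only to tell which of the named genes lie next to each other. Groups and numbers come from the sample titles. METH was compared with PBS by edgeR 4.0.16 (R 4.3.3) on the deposited counts: TMM, filterByExpr (minimum count 10, total 15), robust quasi-likelihood F test, Benjamini-Hochberg at 0.05. The share of counts kept was lowest in PBS 1 (99.8%). Standard errors come from the F statistic. Ratios used log2 counts plus 0.5 and exact permutation tests (scipy 1.17.1). DESeq2 1.42.0, other scalings, filters, pseudocounts, a replicate block and left-out libraries were alternatives. Tests were checked on simulated data. For edgeR these had the same dispersion for all miRNAs and lacked the division of libraries seen here, so that check does not cover it. The miRNAs named are the 4 members, their relatives, the 5 nearest of each by ratio SD, and listed pairs and markers. Members and lists were chosen with earlier results of these data known. No 2 libraries held identical counts.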

Additional observations from a re-analysis of the deposited data

How the results depend on the processing

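edgeR or DESeq2 called 0 miRNAs under each of the 17 alternatives to the fit. Leaving out 1 library gave log2 fold changes of −0.24 to 0.83 for miR-221-3p, −0.24 to 0.68 for miR-222-3p, −1.09 to 0.19 for miR-23b-3p and −0.36 to 0.59 for miR-27b-3p. Without PBS 1, PBS 3 and METH 3, miR-222-3p had −0.22 and miR-27b-3p −0.13, and without both libraries numbered 4, miR-27b-3p had −0.046. The cause of these changes of sign was not tested. The difference in the log2 ratio ranged over left-out libraries from −0.23 to 0.17 for miR-221-3p to miR-222-3p, from −0.89 to −0.36 for miR-23b-3p to miR-27b-3p and from −0.60 to 0.16 for miR-27b-3p to miR-27a-3p. The first was −0.027 without both libraries numbered 4 and 0.35 without PBS 1, PBS 3 and METH 3 (exact permutation p = 0.400, where 0.200 is the smallest possible). Pseudocounts of 0 and 1 changed no sign.

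Libraries with the same number did not deviate together throughout (correlation −0.25 for number 1, and 0.54, 0.77 and 0.89 for the others), so the numbers were not taken as pairs. Libraries with different numbers ranged from −0.79 (PBS 4 with METH 3) to 0.77 (PBS 1 with METH 3). The libraries numbered 4 were also the deepest. With the replicate block the log2 fold changes were 0.33, 0.24, −0.42 and 0.21 in the order above, and 0 miRNAs were called. For miR-23b-3p the SE was 0.38 with the block and 0.70 without it (edgeR adjusted p = 0.995 with it). The same SEs were 0.44 and 0.69 for miR-27b-3p, 0.60 and 0.63 for miR-221-3p, and 0.56 and 0.59 for miR-222-3p. Depth limited the ratio of miR-221-3p to miR-222-3p most in METH 1, with 206 and 133 reads.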

Other observations

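Predicted miRNAs, which carry a number and no known name, were among the closest to 3 of the 4 members. novel_2 was at 64547, 29859, 59045 and 26393 TMM-CPM in PBS 1 to 4 and at 21615, 36277, 105887 and 28465 in METH 1 to 4. novel_9 was at 25267, 9867, 14239 and 7410 in PBS and at 5670, 11550, 40324 and 9056 in METH. Both had their highest level in METH 3 and their lowest in METH 1, as miR-221-3p did. They were picked for a small ratio SD to miR-221-3p over these same libraries, so shared extremes follow from that choice. novel_516, the nearest to miR-23b-3p, was at 444, 1023, 1796 and 1620 in PBS and at 505, 940, 882 and 1664 in METH. In edgeR the log2 fold changes of novel_2, novel_9 and novel_516 were 0.10 (SE 0.66), 0.23 (SE 0.70) and −0.29 (SE 0.58), each with an adjusted p of 0.999.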
